A study of Homo sapiens with 12 samples.

Results

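The factors of nonsense-mediated mRNA decay were examined as 9 genes, UPF1, UPF2, UPF3A, UPF3B, SMG1, SMG8, SMG9, SMG5 and SMG6, chosen by name from the 62710 genes of the deposited count table. All 9 were found and all 9 passed the filter on low counts, which left 20593 genes for testing. The 9 genes also held 724 of the 721551 splicing events in the deposited splicing table, of which 181 had enough reads to test.

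Nonsense-mediated decay removes mRNAs on which a ribosome stops translating too early, and it also sets the level of many normal mRNAs. UPF1 is the RNA helicase at its centre. UPF2 and UPF3B (or its paralogue UPF3A) join UPF1 to the exon junction complex left on the mRNA by splicing, the kinase SMG1 with its regulators SMG8 and SMG9 phosphorylates UPF1, and phosphorylated UPF1 recruits the endonuclease SMG6 and the adaptor SMG5. Many of these genes are themselves among the transcripts that the pathway degrades, and the pathway decides whether a splicing error is seen as a stable RNA.

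The libraries were poly(A) RNA-seq of the human embryonic kidney line HEK293T, an established transformed line, collected 48 hours after transfection of 200 ng of an effector plasmid with 200 ng of a guide RNA plasmid. The effectors were dCasRx, an RNA-guided nuclease made catalytically dead, dCasRx-RBM25, its fusion to RBM25, a splicing factor that associates with the U1 snRNP, and RBFOX1N-dCasRx-C, a fusion with parts of the splicing factor RBFOX1. The 6 groups of 2 biological replicates were dCasRx with a nontargeting guide (dCasRx_NT), dCasRx-RBM25 with a nontargeting guide (RBM25_NT), with a guide to MAPT exon 10 (RBM25_MAPT) or with a guide to CD46 exon 13 (RBM25_CD46), and RBFOX1N-dCasRx-C with a nontargeting guide (RBFOX1N_NT) or the MAPT guide (RBFOX1N_MAPT). Every group carried a dCasRx protein and a guide, so no group is of untransfected cells, and none of the guides was aimed at a decay factor. All 5 other groups differ from dCasRx_NT in the effector, and dCasRx was given with the nontargeting guide only.

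Library totals ranged from 32487927 to 53985468 counts, and the decay factors had 1279 to 16578 counts per library. The RBM25 gene, with the plasmid's own RBM25 sequence, took 4.08% to 5.69% of counts in the 6 RBM25 libraries and 0.02% to 0.0381% in the 6 others. All 7 markers of HEK293T cells checked were above 1 CPM (counts scaled to a common library total) in all libraries, with a summed level of 893 to 972 CPM with dCasRx, 905 to 1150 CPM with RBM25 and 1020 to 1090 CPM with RBFOX1N. VIM, at 646 to 863 CPM, made up most of that sum, and single markers differed between effectors. KRT8 was at 65.3 to 67.3 CPM with RBFOX1N and 28.6 to 30.4 CPM with dCasRx (2.25-fold; edgeR, adjusted p = 2.13e-06) and was also higher with RBFOX1N than with RBM25 (2.41-fold; edgeR, adjusted p = 5.59e-09). PAX2 (1.67-fold), LHX1 (1.29-fold) and NEFL (1.26-fold) were higher with RBM25 than with RBFOX1N, and LHX1 was higher with RBM25 than with dCasRx (1.41-fold; edgeR, largest adjusted p = 0.0114); the part of these differences in the results was not tested. Of 9 markers of blood, liver, mature kidney, fibroblast and endothelial cells, 8 stayed under 1 CPM in all libraries. The exception was the collagen gene COL1A1 at 20.3 to 34.4 CPM, and the 9 summed to 30.7 to 32.4 CPM with dCasRx, 22.4 to 35.4 CPM with RBM25 and 21.7 to 28.1 CPM with RBFOX1N. In RNA from a whole culture, fewer transfected cells and less RNA per cell cannot be told apart.

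Per kilobase of annotated exon, the mean level over the 12 libraries was highest for SMG5, at 53.9 CPM per kb, followed by UPF1 at 38.0 and UPF3B at 32.5 CPM per kb. SMG8 was at 17.0, UPF2 at 12.4, SMG9 at 7.51, SMG6 at 7.02, UPF3A at 6.45 and SMG1 at 4.29 CPM per kb. The SMG5 level was the most even, with a coefficient of variation of 4.06% over the 12 libraries, and the SMG9 level the most variable of the 9, at 21.8%. The exon length behind these values is the union of all annotated exons of a gene, so a gene with many rare exons, such as SMG1 with 25988 nt, reads lower on this scale.

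**Figure D1:**
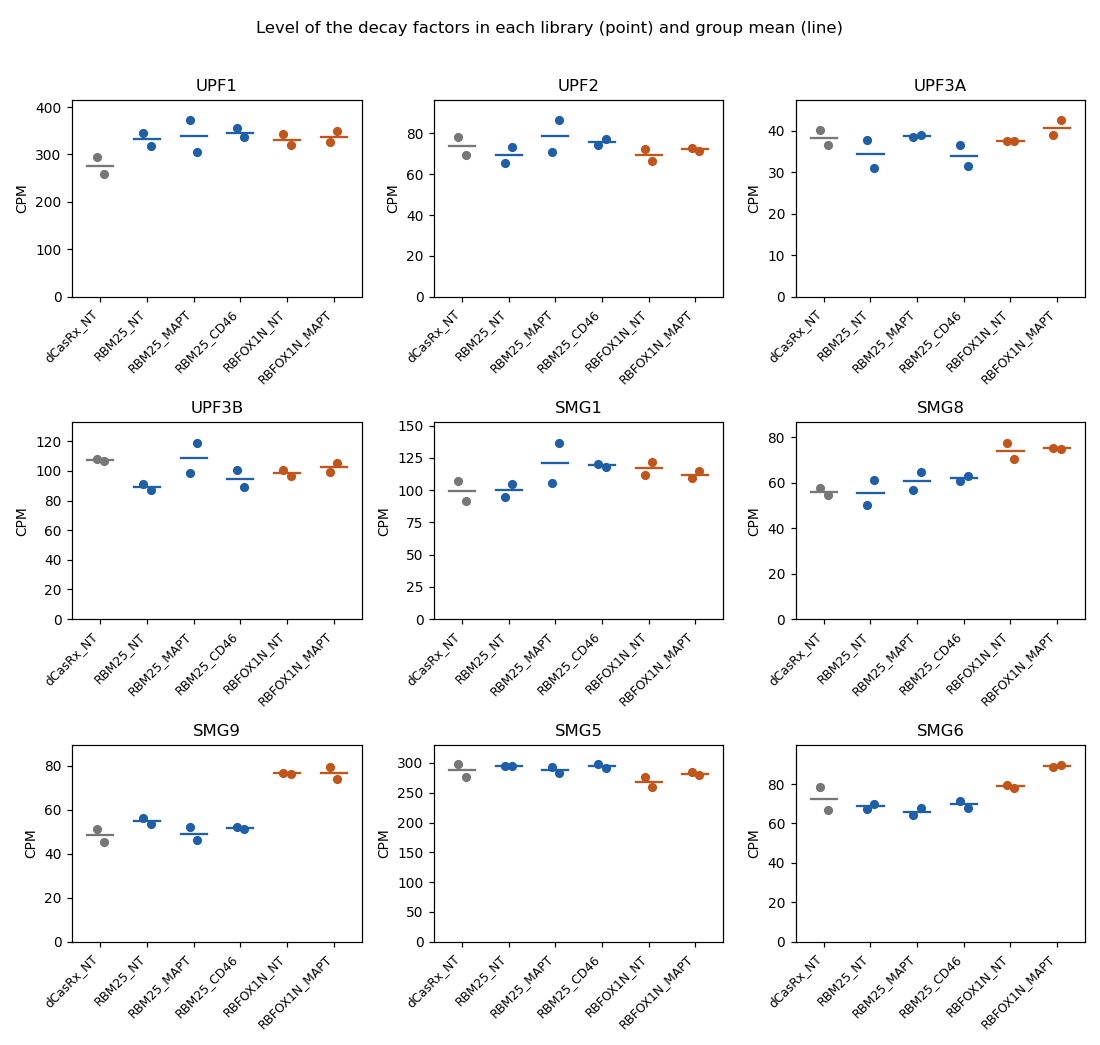
Level of each decay factor in CPM (y axis, from 0) in the 6 groups (x axis), with 1 point per library and a line at the group mean. The 4 RBFOX1N libraries sit above the 8 others for SMG9, from 74.1 to 79.6 CPM, and the 2 dCasRx libraries sit lowest for UPF1.

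The 3 comparisons averaged over guides asked how the effectors differed. RBM25 effector libraries differed from dCasRx in 1 of the 9 decay factors, UPF1, which was higher, where 15.5% of all genes were called and 7.31% were called higher (edgeR, adjusted p under 0.05). RBFOX1N libraries differed from dCasRx in 3 of the 9, UPF1, SMG8 and SMG9, all higher, where 20.1% of all genes were called and 11.6% were called higher. Between RBM25 and RBFOX1N, 3 of the 9 differed, SMG6, SMG8 and SMG9, all lower with RBM25, where 39.6% of all genes were called and 20.4% were called lower. The median log2 change of the 9 was 0.03, 0.20 and -0.05 in the 3 comparisons, beside 0.01, -0.02 and 0.01 over all genes tested. The first pair of comparisons share the 2 dCasRx libraries. The third is the difference of that pair and uses the same RBM25 and RBFOX1N libraries, so the 3 are not independent of each other.

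**Figure D2:**
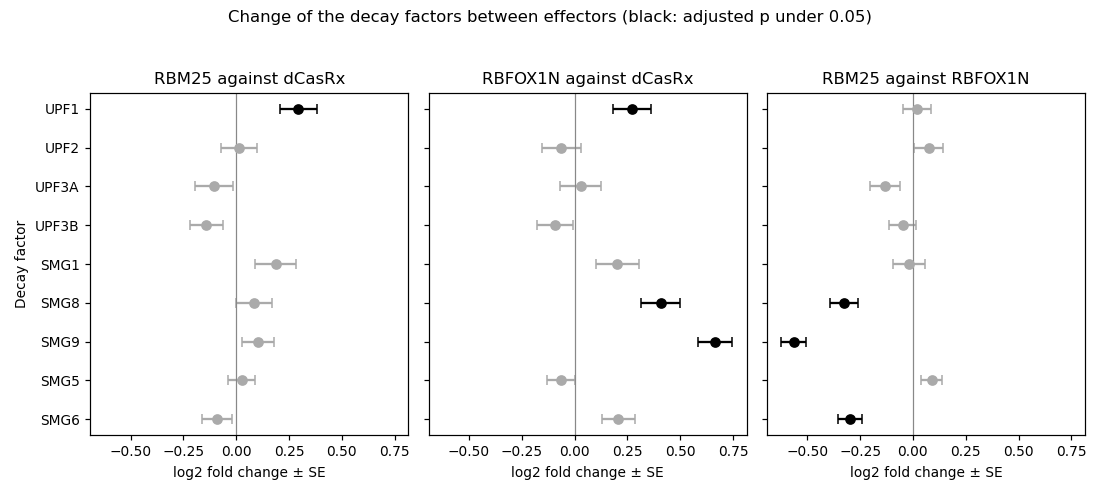
Fitted log2 fold change with its standard error (x axis) of the 9 decay factors (y axis) in the 3 comparisons between effectors, with calls at an adjusted p under 0.05 in black. SMG9 moved the furthest, 0.67 higher with RBFOX1N than with dCasRx and 0.56 lower with RBM25 than with RBFOX1N on the log2 scale.

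UPF1 (ENSG00000005007, chr19:18831938-18868236, plus strand) was lowest in the dCasRx libraries. It stood at 293.9 and 258.8 CPM in dCasRx_NT, 345.6 and 318.5 in RBM25_NT, 371.7 and 305.6 in RBM25_MAPT, 354.8 and 337.1 in RBM25_CD46, 342.7 and 319.1 in RBFOX1N_NT, and 325.4 and 349.0 CPM in RBFOX1N_MAPT. Neither dCasRx library overlapped the 10 others, while the RBM25 and RBFOX1N libraries overlapped each other. The fitted change was 1.23-fold with RBM25 (log2 0.29, SE 0.09; edgeR, adjusted p = 0.035) and 1.21-fold with RBFOX1N (log2 0.27, SE 0.09; edgeR, adjusted p = 0.0479). Both calls were lost without dCasRx_NT replicate 2, the lowest library, where the changes were 0.18 (edgeR, adjusted p = 0.35) and 0.17 (edgeR, adjusted p = 0.367) on the log2 scale. The RBM25 call was also lost without RBM25_NT replicate 1 or any 1 library of RBM25_CD46 or RBFOX1N_MAPT, and the RBFOX1N call without any 1 library of RBM25_NT, RBM25_CD46, RBFOX1N_NT or RBFOX1N_MAPT. RBM25 and RBFOX1N differed by a log2 of 0.02 (SE 0.07; edgeR, adjusted p = 0.83), an interval of 2 SE from -0.11 to 0.15.

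UPF2 (chr10:11920022-12043170), the scaffold between UPF1 and UPF3, ranged from 65.4 to 86.6 CPM over the 12 libraries and was not called in any of the 6 comparisons. It stood at 78.4 and 69.3 CPM with dCasRx, from 65.4 to 86.6 CPM with RBM25 and from 66.5 to 73.0 CPM with RBFOX1N, and all neighbouring groups in the order of means overlapped. UPF3A (chr13:114281584-114305817) ranged from 30.9 to 42.5 CPM, with 40.1 and 36.5 CPM in the dCasRx libraries. UPF3B (chrX:119805311-119852998), the main binder of the exon junction complex in most tissues, was at 107.7 and 106.6 CPM with dCasRx, 87.1 to 119.0 CPM with RBM25 and 96.7 to 105.5 CPM with RBFOX1N. The 4 RBFOX1N libraries thus lay just under both dCasRx libraries for UPF3B, a log2 difference of -0.09 (SE 0.08) that edgeR did not call (adjusted p = 0.457). The RBM25 value for UPF3B was -0.14 (SE 0.08; edgeR, adjusted p = 0.243), with 1 library, RBM25_MAPT replicate 2, above dCasRx at 119.0 CPM.

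SMG1 (ENSG00000157106, chr16:18804853-18926454, minus strand), the kinase that phosphorylates UPF1, was at 107.0 and 91.9 CPM with dCasRx. It stood at 95.1 and 105.2 CPM in RBM25_NT, 105.7 and 136.5 in RBM25_MAPT, 120.7 and 118.1 in RBM25_CD46, 111.7 and 122.1 in RBFOX1N_NT, and 109.3 and 114.8 CPM in RBFOX1N_MAPT. The 4 RBFOX1N libraries did not overlap dCasRx, yet the log2 change of 0.20 (SE 0.10) was not called (edgeR, adjusted p = 0.171), and neither was that of RBM25, 0.19 (SE 0.10; edgeR, adjusted p = 0.207). SMG1 has near-identical pseudogenes on the same chromosome. The 9 entries named SMG1P1 to SMG1P7 held 7.01% to 9.51% of the counts of the gene and these copies together with dCasRx, 6.44% to 10.3% with RBM25 and 4.79% to 6.56% with RBFOX1N, so its level is uncertain by how the counting split such reads. The RBFOX1N share lay wholly under that of dCasRx, and with the copies summed into SMG1 the RBFOX1N value was 0.16 (edgeR, adjusted p = 0.249) and no call changed. The RBM25 value turned on single libraries: without dCasRx_NT replicate 2 it was 0.06 (edgeR, adjusted p = 0.835), with the nontargeting guide only 0.01 (edgeR, adjusted p = 0.969), and without RBM25_MAPT replicate 1 it was 0.25 and called (edgeR, adjusted p = 0.0355). The RBFOX1N value without dCasRx_NT replicate 2 was 0.09 (edgeR, adjusted p = 0.743).

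SMG8 and SMG9 hold the kinase SMG1 in check, and both were higher with RBFOX1N. SMG9 (ENSG00000105771, chr19:43727992-43754990, minus strand) was at 51.2 and 45.4 CPM in dCasRx_NT, 56.3 and 53.3 in RBM25_NT, 52.0 and 46.2 in RBM25_MAPT, 52.0 and 51.4 in RBM25_CD46, 76.7 and 76.2 in RBFOX1N_NT, and 79.6 and 74.1 CPM in RBFOX1N_MAPT. All 4 RBFOX1N libraries were above the 8 others, and among those 8 the RBM25_NT libraries lay just above dCasRx, RBM25_MAPT and RBM25_CD46. SMG9 was 1.59-fold higher with RBFOX1N than with dCasRx (log2 0.67, SE 0.08; edgeR, adjusted p = 0.000144) and 1.48-fold lower with RBM25 than with RBFOX1N (log2 -0.56, SE 0.06; edgeR, adjusted p = 8.08e-06). The difference between RBM25 and dCasRx was 0.10 on the log2 scale (SE 0.08; edgeR, adjusted p = 0.381), an interval of 2 SE from -0.05 to 0.25. In the order of group means, the step from RBM25_NT to RBFOX1N_NT, from 54.8 ± 2.11 to 76.4 ± 0.334 CPM (SD, n = 2 each), separated both RBFOX1N groups from the rest.

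SMG8 (ENSG00000167447, chr17:59209400-59215247, plus strand) was at 57.8 and 54.5 CPM in dCasRx_NT, 50.3 and 61.1 in RBM25_NT, 56.7 and 64.9 in RBM25_MAPT, 60.9 and 63.0 in RBM25_CD46, 77.4 and 70.3 in RBFOX1N_NT, and 75.4 and 75.0 CPM in RBFOX1N_MAPT. The 4 RBFOX1N libraries again did not overlap the 8 others. SMG8 was 1.33-fold higher with RBFOX1N than with dCasRx (log2 0.41, SE 0.09; edgeR, adjusted p = 0.00837), a call that was lost without dCasRx_NT replicate 2 (log2 0.36, edgeR, adjusted p = 0.104). It was 1.25-fold lower with RBM25 than with RBFOX1N (log2 -0.33, SE 0.07; edgeR, adjusted p = 0.00168). Annotated exons of another gene on the same strand, AC099850.2, cover 11.3% of the SMG8 exon bases, and reads there could belong to either gene.

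SMG5 (ENSG00000198952, chr1:156249224-156282825, minus strand), which links phosphorylated UPF1 to its dephosphorylation, was the steadiest member, from 259.0 to 298.4 CPM. It stood at 298.4 and 276.5 CPM with dCasRx, 284.0 to 298.2 CPM with RBM25 and 259.0 to 285.6 CPM with RBFOX1N, and it was not called in any comparison. SMG6 (ENSG00000070366, chr17:2059839-2303771, minus strand), the endonuclease that cuts near the premature stop, was at 78.2 and 66.8 CPM in dCasRx_NT, 67.6 and 69.8 in RBM25_NT, 64.4 and 67.6 in RBM25_MAPT, 71.4 and 67.8 in RBM25_CD46, 79.6 and 78.0 in RBFOX1N_NT, and 88.4 and 89.5 CPM in RBFOX1N_MAPT. All 6 RBM25 libraries were under all 4 RBFOX1N libraries, and dCasRx spanned both. SMG6 was 1.23-fold lower with RBM25 than with RBFOX1N (log2 -0.30, SE 0.06; edgeR, adjusted p = 0.000967), but with the nontargeting guide alone the log2 difference was -0.20 and was not called (edgeR, adjusted p = 0.137). Against dCasRx, the RBFOX1N value was 0.21 (SE 0.08; edgeR, adjusted p = 0.0686) and the RBM25 value -0.09 (SE 0.07; edgeR, adjusted p = 0.415). The RBFOX1N value was called without dCasRx_NT replicate 1 (0.34; edgeR, adjusted p = 0.0193) or without either RBM25_MAPT library (0.21 each; edgeR, adjusted p = 0.0436 and 0.0435), and without dCasRx_NT replicate 2 it was 0.09 (edgeR, adjusted p = 0.617). Genes on the opposite strand, HIC1, AC090617.2 and SRR, overlap 25.4% of the SMG6 exon bases, and the strand setting behind the counts is not stated.

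The guides made no called difference in any decay factor, in any of 3 comparisons within an effector (edgeR, 0 of 9 genes each, 0% of all genes called; DESeq2 called 0 of 9 as well). At an unadjusted p under 0.05 there were 2 of 9 for the MAPT guide with RBM25, 1 of 9 for the CD46 guide with RBM25 and 0 of 9 for the MAPT guide with RBFOX1N. The 2 were UPF3B (log2 0.29, SE 0.10; edgeR, adjusted p = 0.868) and SMG1 (log2 0.27, SE 0.12; edgeR, adjusted p = 0.868), both at their highest in RBM25_MAPT replicate 2. Without RBM25_MAPT replicate 1, which leaves that library alone in its group, both were called (0.42 and 0.45; edgeR, adjusted p = 0.0291 and 0.0397), while without RBM25_MAPT replicate 2 they were 0.15 and 0.08 (edgeR, adjusted p = 0.984 and 0.993). For the CD46 guide it was SMG1 (log2 0.25, SE 0.12; edgeR, adjusted p = 1). The changes of the 9 ranged from -0.16 to 0.29, from -0.09 to 0.25 and from -0.06 to 0.18 on the log2 scale in the 3 comparisons. A test of whether the MAPT guide acted differently with the 2 effectors called no decay factor (edgeR, 0 of 9, smallest adjusted p = 0.936) and 0 of the 20593 genes.

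SMG9 was the member with the smallest p between RBM25 and RBFOX1N, and its profile over the 12 libraries was compared with that of the 20592 other tested genes. The 5 genes most like it by Pearson's r of log2 CPM were REEP4 (0.99), ID3 (0.99), ZMYM3 (0.99), the unnamed gene ENSG00000273428 (0.99) and TREX2 (0.99). Chosen for this likeness, each had the 4 RBFOX1N libraries highest, as SMG9 did, so that order is no separate result. ID3, for example, was at 206.9 to 227.3 CPM with RBFOX1N, 102.4 to 129.8 with RBM25 and 107.7 to 116.5 CPM with dCasRx. Among the decay factors the closest to SMG9 were SMG6 (r = 0.83) and SMG8 (r = 0.78), which ranked 1527 and 2046 among the 20592 genes, and the least alike was SMG5 (r = -0.53). Of the 36 pairs of decay factors, 7 had an r over 0.5 and 2 an r under -0.5. The 12 libraries share their effector groups and depth, so these are descriptions.

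Genes that work beside the 9 factors were read from a list of 30, all tested: release factors, decapping and exonuclease proteins, exon junction and cap-binding proteins and others. With RBM25 against dCasRx, 4 were higher and 1 lower, 16.7% of the list beside 15.5% of all genes (median log2 change 0.07, beside 0.01 over all genes). Those with the largest changes were RBM8A, a core protein of the exon junction complex, at 92.3 to 112.5 CPM against 79.1 to 87.3 (log2 0.35, SE 0.08), the decapping cofactor DCP1A at 98.3 to 109.0 against 82.2 to 83.4 CPM (0.30, SE 0.07), and RNPS1, a splicing factor that joins the exon junction complex, at 528.7 to 572.7 against 415.8 to 497.3 CPM (0.26, SE 0.08). The one lower was DCP1B, the paralogue of DCP1A, at 22.6 to 25.5 against 30.02 to 38.0 CPM (log2 -0.51, SE 0.09; edgeR, adjusted p = 0.0024). None of these libraries overlapped between the groups.

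With RBFOX1N against dCasRx, 4 of the 30 were higher and 1 lower as well, 16.7% of the list beside 20.1% of all genes (median -0.004, beside -0.02 over all genes). The highest changes were in the helicase DHX34, which promotes UPF1 phosphorylation (131.5 to 139.3 against 90.4 to 111.7 CPM; log2 0.44, SE 0.09), in the phosphatase scaffold PPP2R1A (419.1 to 484.2 against 312.7 to 356.4 CPM; 0.44, SE 0.08) and in DCP1A (102.1 to 111.4 against 82.2 to 83.4 CPM; 0.37, SE 0.07). The phosphatase subunit PPP2CA was lower, at 7.37 to 7.86 against 8.71 to 12.3 CPM (log2 -0.47, SE 0.13; edgeR, adjusted p = 0.021). Between RBM25 and RBFOX1N, 7 of the 30 were higher and 3 lower, 33.3% of the list beside 39.6% of all genes (median 0.06, beside 0.01). RBM8A was 1.49-fold higher with RBM25 (log2 0.57, SE 0.07; edgeR, adjusted p = 2.41e-05), followed by PPP2CA (0.49, SE 0.10) and the poly(A)-binding protein PABPC1 (0.23, SE 0.05). DCP1B (-0.65, SE 0.07; edgeR, adjusted p = 1.53e-05), DHX34 (-0.31, SE 0.07) and PPP2R1A (-0.21, SE 0.06) were lower with RBM25, and only for PPP2R1A among these 6 did the libraries overlap.

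**Figure D3:**
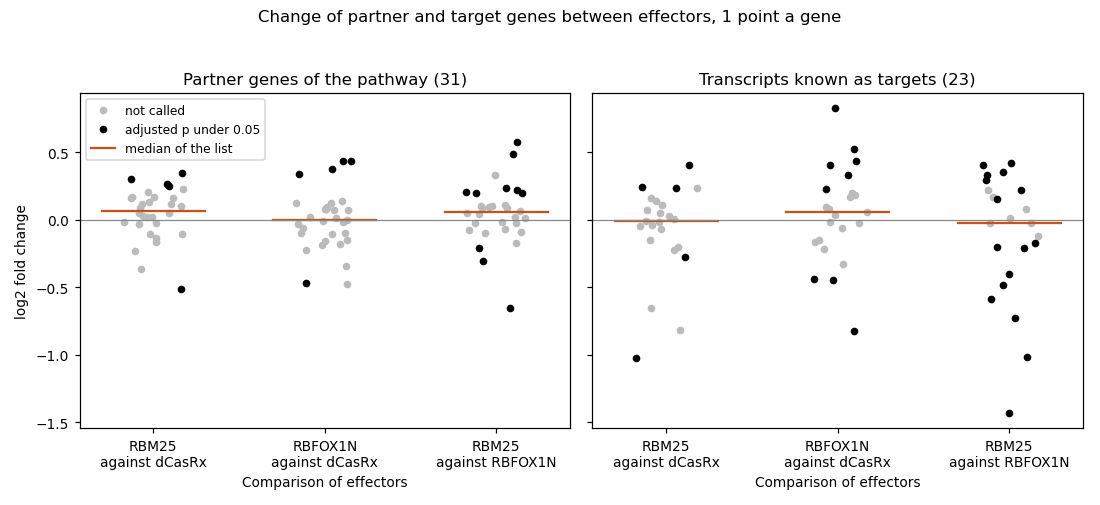
Fitted log2 fold change (y axis) of 30 partner genes (left) and 23 genes with transcripts known as targets of the decay pathway (right). The 3 comparisons between effectors are on the x axis, with 1 point per gene. Points are black where the adjusted p was under 0.05, and a line marks the list's median. The medians lie between -0.02 and 0.07, and DDIT3 is the lowest target, at -1.02 and -1.43 with RBM25.

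The list of 23 genes with transcripts known to be degraded by the pathway, all tested, moved in both directions. Counts are per gene, so a degraded form was not told apart from other transcripts of the same gene. With RBM25 against dCasRx, 3 were higher and 2 lower, 21.7% of the list beside 15.5% of all genes (median log2 change -0.01, beside 0.01 over all genes). The small nucleolar RNA host SNHG1 was higher (166.4 to 205.2 against 128.8 to 147.7 CPM; log2 0.40, SE 0.09; edgeR, adjusted p = 0.00739), with the stress gene GADD45B (0.24, SE 0.08) and the ribosomal protein gene RPL10A (0.23, SE 0.06). The stress transcription factor DDIT3 was lower, at 6.84 to 8.90 against 14.5 to 16.9 CPM (log2 -1.02, SE 0.10; edgeR, adjusted p = 3.76e-05), and so was the host gene SNHG15 (-0.27, SE 0.07). With RBFOX1N, 6 were higher and 3 lower, 39.1% of the list beside 20.1% of all genes (median 0.05, beside -0.02). GADD45B (40.8 to 47.2 against 24.7 to 25.6 CPM; log2 0.83, SE 0.08; edgeR, adjusted p = 2.66e-05), the stress factor ATF3 (0.52, SE 0.08) and the uridine phosphorylase gene UPP1 (0.44, SE 0.13) rose the most, and the RNA host genes ZFAS1 (-0.83, SE 0.23), EPB41L4A-AS1 (-0.44, SE 0.10) and SNHG12 (-0.44, SE 0.11) fell the most.

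Between RBM25 and RBFOX1N, 7 of the 23 targets were higher and 9 lower, 69.6% of the list beside 39.6% of all genes. The median was -0.02 beside 0.01. For this share and those against dCasRx above, the genes set beside the list were not matched to it by level. The list was also chosen with earlier results of these data known, so the shares are descriptions. SNHG1 (log2 0.42, SE 0.07), EPB41L4A-AS1 (0.41, SE 0.08) and SNHG16 (0.35, SE 0.07) led those higher with RBM25. Apart from RP9P, those lower were led by DDIT3 (-1.43, SE 0.08, at 6.84 to 8.90 against 19.2 to 23.4 CPM) and ATF3 (-0.73, SE 0.06) (edgeR, adjusted p = 4.8e-08 and 7.84e-07). RP9P had very few reads, at 0.115 to 0.215 against 0.256 to 0.494 CPM (log2 -1.01, SE 0.37). It is counted among the 9 lower and in the 69.6%. It may have passed the filter on low counts only through libraries where it was higher, so its call is no support for a difference. DDIT3, ATF3 and GADD45B are also induced by cell stress through transcription, a role apart from decay.

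In the splicing table, the percent spliced in (PSI) is the percent of reads that carry the exon, intron or splice site. Of the 181 tested events in the decay factors, 92 were cassette exons, 49 retained introns, 24 alternative 3′ splice sites and 16 alternative 5′ splice sites, and 49 had a mean PSI between 5 and 95. SMG1 held 48 of them, SMG5 34, UPF1 28, SMG9 16, SMG6 14, UPF3A and UPF3B 13 each, UPF2 11 and SMG8 4. With an adjusted p under 0.05 and at least 10 points between the means, 1 event was called in each comparison of effectors, where 1.06%, 1.57% and 2.82% of all 100386 events were called with RBM25 against dCasRx, RBFOX1N against dCasRx and RBM25 against RBFOX1N. By adjusted p alone, at any size, there were 9, 7 and 19 of the 181, beside 4.12%, 4.31% and 14% of all events. Of the 19, 5 lay in UPF1, 4 each in SMG1, SMG5 and SMG9 and 2 in UPF3B. Some exons under 10 points that passed the adjusted p are described below; those outside the 5 largest differences of a comparison were chosen after their values were seen, as in the UPF1 exons, the SMG9 exon of 58 nt and the 4 exons nearly always included.

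Sequences are shown for an exon each of SMG5, UPF1 and UPF3B whose differences passed the adjusted p, because skipping shortens or shifts the reading frame, for the UPF1 extension because it is a known isoform choice, and for the SMG5 intron because it opens with a stop codon. Exons of SMG1 with larger differences are not printed, as their reads may come in part from pseudogenes. They were read from GENCODE release 29 transcripts (GRCh38), 5′ to 3′ on the strand of the gene. In the exons, capitals mark the 3 bases next to each splice site; in the UPF1 exon end, the 33 bases between the inner and the outer 5′ splice site; in the intron, the first stop codon in frame. They lie at chr1:156266541-156266678 (SMG5 exon), chr1:156251283-156251402 (start of the SMG5 intron), chr19:18856877-18857020 and chr19:18853048-18853104 (UPF1), and chrX:119841735-119841778 (UPF3B).
SMG5 exon 11 of 22, 138 nt: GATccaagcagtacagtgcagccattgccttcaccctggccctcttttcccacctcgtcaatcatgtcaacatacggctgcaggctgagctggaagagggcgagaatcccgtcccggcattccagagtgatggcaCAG
SMG5 intron 20, first 120 nt: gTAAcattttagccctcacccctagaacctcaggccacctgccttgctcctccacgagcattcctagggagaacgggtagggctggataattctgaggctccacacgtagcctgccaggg
UPF1 exon 14 of 24, 144 nt: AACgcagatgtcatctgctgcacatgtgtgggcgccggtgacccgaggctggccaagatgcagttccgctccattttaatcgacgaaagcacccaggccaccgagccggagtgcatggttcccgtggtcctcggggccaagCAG
UPF1 end of exon 7, 24 nt and the 33 nt extension: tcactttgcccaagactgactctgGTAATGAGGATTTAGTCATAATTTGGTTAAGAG
UPF3B exon 6 of 11, 44 nt: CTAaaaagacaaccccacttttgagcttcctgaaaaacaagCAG

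The SMG5 exon of 138 nt was skipped more often with RBM25. Its PSI was 95.1 and 93.9% in dCasRx_NT, 90.7 and 87.5% in RBM25_NT, 89.3 and 89.3% in RBM25_MAPT, 90.1 and 88.6% in RBM25_CD46, 98.1 and 96.3% in RBFOX1N_NT, and 96.5 and 97.8% in RBFOX1N_MAPT, on 919 to 1647 reads. The 3 effectors did not overlap, with RBM25 lowest, dCasRx between and RBFOX1N highest. The difference was -7.96 points between RBM25 and RBFOX1N (SE 0.613; quasi-binomial model, adjusted p = 7.4e-07) and -5.24 points between RBM25 and dCasRx (SE 0.887; quasi-binomial model, adjusted p = 0.00589), both under the 10 points set for a call. RBFOX1N lay 2.72 points above dCasRx (SE 0.807; quasi-binomial model, adjusted p = 0.0585). The exon is exon 11 of the main coding transcript, and without it the open reading frame stays in frame and shortens from 1016 to 970 codons.

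The SMG5 intron of 406 nt, which follows exon 20 of the same transcript, went the other way. Its PSI was 6.23 and 9.70% in dCasRx_NT, 14.4 and 10.8% in RBM25_NT, 12.3 and 11.2% in RBM25_MAPT, 12.0 and 11.6% in RBM25_CD46, 3.35 and 4.84% in RBFOX1N_NT, and 4.21 and 4.46% in RBFOX1N_MAPT, on 509 to 895 reads. Again the 3 effectors did not overlap, with RBFOX1N lowest and RBM25 highest. RBM25 was 7.82 points above RBFOX1N (SE 0.808; quasi-binomial model, adjusted p = 2.03e-05), while the differences of 4.07 points (adjusted p = 0.0769) and -3.75 points (adjusted p = 0.0752) from dCasRx did not pass the quasi-binomial model. As the printed sequence shows, the frame read into the intron meets a TAA at its bases 2 to 4. A retained copy would end at 943 codons, with the stop 541 nt before the last exon junction, further than the 50 nt by which a stop is usually counted as premature. The total SMG5 count was not called in any comparison, and a link between this intron and the count was not tested.

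The one SMG9 event called at 10 points was an intron of 3101 nt (chr19:43734496-43737596). Its PSI was 16.5 and 14.1% in dCasRx_NT, 23.1 and 25.9% in RBM25_NT, 15.9 and 27.3% in RBM25_MAPT, 21.2 and 16.9% in RBM25_CD46, 7.45 and 11.3% in RBFOX1N_NT, and 10.4 and 13.6% in RBFOX1N_MAPT. All RBM25 libraries were above all RBFOX1N libraries, and dCasRx overlapped RBM25. The difference between RBM25 and RBFOX1N was 11.1 points (SE 2.11; quasi-binomial model, adjusted p = 0.00236) on 101 to 218 reads, so the highest library, RBM25_MAPT replicate 2, has a 95% Wilson interval of 20.2% to 35.2%. Without that library the difference was 9.15 points and no longer reached 10. The SMG9 count was higher with RBFOX1N, and a link between this intron and the count was not tested. A 58 nt exon of SMG9 (chr19:43744827-43744884) was at 82.6 to 91.6% with RBM25 and 90.1 to 93.5% with RBFOX1N. The difference was -4.46 points (SE 1.33, quasi-binomial model, adjusted p = 0.0464) with overlapping libraries. None of the 7 annotated coding transcripts of SMG9 holds this exact exon, though 4 annotated transcripts cover its bases.

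**Figure D4:**
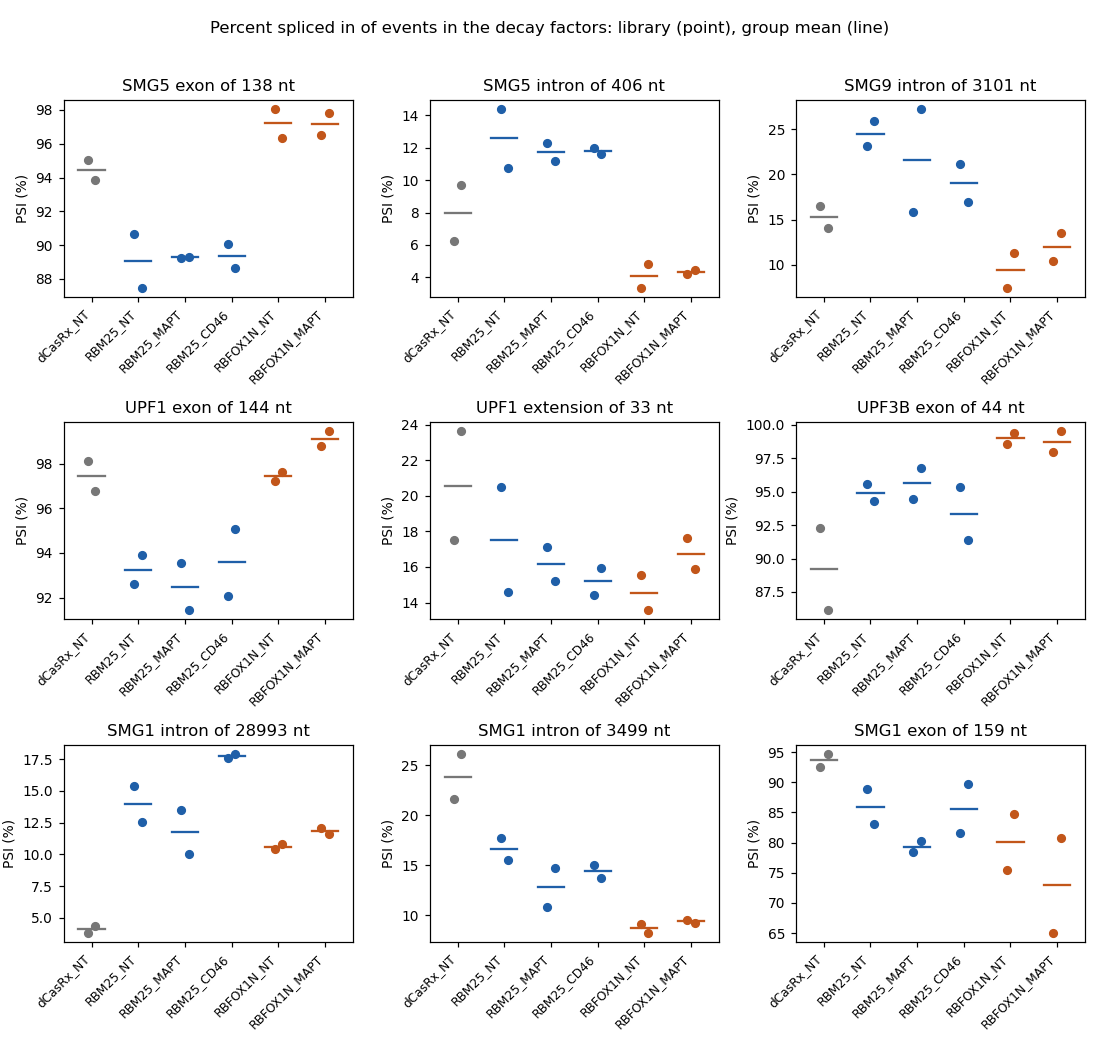
PSI in percent (y axis, scaled to each event and not from 0) of 9 events in the decay factors across the 6 groups (x axis), with 1 point per library and a line at the group mean. For the SMG5 exon, the 6 RBM25 libraries lie at 87.5 to 90.7%, under all others. For the UPF1 extension all libraries range from 13.6 to 23.6%, and the 3 effectors overlap in part of that range.

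UPF1 had the most events past the adjusted p between RBM25 and RBFOX1N, 5 of its 28 tested, each under 10 points. SMG9 had 4 of 16, and 14% of all events passed, so this count does not set UPF1 apart. The 144 nt exon was at 98.1 and 96.8% in dCasRx_NT, 92.6 and 93.9% in RBM25_NT, 93.5 and 91.4% in RBM25_MAPT, 92.1 and 95.1% in RBM25_CD46, 97.2 and 97.6% in RBFOX1N_NT, and 98.8 and 99.5% in RBFOX1N_MAPT. All 6 RBM25 libraries were under the 6 others. RBM25 was 5.17 points under RBFOX1N, a difference of -5.17 (SE 0.583; quasi-binomial model, adjusted p = 3.07e-05), and the difference from dCasRx was -4.34 points (SE 0.818; quasi-binomial model, adjusted p = 0.0225). Skipping of this exon keeps the frame of the main coding transcript, from 1118 to 1070 codons. Of the 4 other UPF1 exons in this set, those of 177, 214 and 157 nt differed by -3.01, -1.96 and -0.887 points, and that of 82 nt by -1.05 points.

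The best known isoform choice of UPF1, the 33 nt extension of exon 7 that adds 11 codons to its regulatory loop, was not called. The longer form made up 17.5 and 23.6% in dCasRx_NT, 20.5 and 14.6% in RBM25_NT, 17.2 and 15.2% in RBM25_MAPT, 14.4 and 16.0% in RBM25_CD46, 15.5 and 13.6% in RBFOX1N_NT, and 17.6 and 15.9% in RBFOX1N_MAPT. All 3 effectors overlapped, though dCasRx and RBFOX1N did so only through 17.5% in dCasRx_NT replicate 1 and 17.6% in RBFOX1N_MAPT replicate 1. RBM25 and RBFOX1N differed by 0.657 points (SE 1.48; quasi-binomial model, adjusted p = 0.833), and each was under dCasRx, by -4.27 points (SE 2.29; quasi-binomial model, adjusted p = 0.354) and -4.93 points (SE 2.42; quasi-binomial model, adjusted p = 0.309), with dCasRx_NT replicate 2 the highest of the 12 libraries.

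UPF3B exon 6, of 44 nt, was included most with RBFOX1N. Its PSI was 92.3 and 86.1% in dCasRx_NT, 95.6 and 94.3% in RBM25_NT, 94.5 and 96.8% in RBM25_MAPT, 95.3 and 91.4% in RBM25_CD46, 98.6 and 99.4% in RBFOX1N_NT, and 98.0 and 99.5% in RBFOX1N_MAPT, on 276 to 485 reads. The RBFOX1N libraries were above all others, and 1 RBM25 library overlapped dCasRx. RBFOX1N was 9.64 points above dCasRx (SE 1.82; quasi-binomial model, adjusted p = 0.00118), just short of 10 points, and RBM25 differed from RBFOX1N by -4.23 points (SE 0.79; quasi-binomial model, adjusted p = 0.00423). RBM25 was 5.42 points above dCasRx, which did not pass (quasi-binomial model, adjusted p = 0.0949), with 2.35 to 8.48 points when any 1 library was left out. The RBFOX1N difference from dCasRx was 12.7 points without dCasRx_NT replicate 1 and 10.03 points without RBFOX1N_MAPT replicate 1, both called, and 6.58 points without dCasRx_NT replicate 2, under the 10 set for a call. In the annotated transcript that also holds the 39 nt exon, skipping of exon 6 shifts the frame and ends it at 249 of 483 codons, with the stop 508 nt before the last exon junction. The 39 nt exon of UPF3B that marks its longer isoform stayed rare, at 3.43 to 5.55% in all 12 libraries, with no difference called.

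SMG1 held the 2 other events called at 10 points, both introns with 2 dCasRx libraries apart from the rest. The intron of 28993 nt after the first exon (chr16:18896957-18925949) had a PSI of 3.83 and 4.40% in dCasRx_NT, 15.4 and 12.6% in RBM25_NT, 13.5 and 10.0% in RBM25_MAPT, 17.6 and 17.9% in RBM25_CD46, 10.4 and 10.8% in RBFOX1N_NT, and 12.1 and 11.6% in RBFOX1N_MAPT. Both dCasRx libraries were under all 10 others. The difference was 10.4 points with RBM25 (SE 1.52; quasi-binomial model, adjusted p = 0.00554) and 7.11 points with RBFOX1N (SE 1.53; quasi-binomial model, adjusted p = 0.0311). This span holds 5 annotated exons of other SMG1 transcripts, whose reads were not separated from the intron's. Leaving out either dCasRx library, RBM25_NT replicate 1 or RBM25_MAPT replicate 1 ended the call, with the difference between 9.81 and 11.0 points when any 1 library was left out.

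The SMG1 intron of 3499 nt (chr16:18872625-18876123) was at 21.6 and 26.2% in dCasRx_NT, 17.7 and 15.5% in RBM25_NT, 10.8 and 14.7% in RBM25_MAPT, 15.1 and 13.7% in RBM25_CD46, 9.11 and 8.23% in RBFOX1N_NT, and 9.49 and 9.23% in RBFOX1N_MAPT. The 3 effectors did not overlap, with dCasRx highest and RBFOX1N lowest. RBFOX1N differed from dCasRx by -14.9 points (SE 3.28; quasi-binomial model, adjusted p = 0.00587), a call lost without dCasRx_NT replicate 2 at -12.6 points, and RBM25 differed by -9.30 points (SE 3.25; quasi-binomial model, adjusted p = 0.0753). The exon of 159 nt at chr16:18837285-18837443 was at 92.6 and 94.7% with dCasRx, 78.4 to 89.7% with RBM25 and 65.1 to 84.8% with RBFOX1N, but on 34 to 85 reads, and its difference of -17.1 points with RBFOX1N (SE 4.54) was not called (quasi-binomial model, adjusted p = 0.102). None of the 10 annotated coding transcripts of SMG1 holds the exact exon of 159 nt, though 2 annotated transcripts cover its bases. Reads of all SMG1 events may come in part from the pseudogene copies, and their part was not tested.

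In 4 exons that are nearly always included, both dCasRx libraries were lower than all 10 others, and the difference passed the adjusted p in both comparisons with dCasRx, which share those 2 libraries. The UPF1 exon of 82 nt (chr19:18864170-18864251) was at 93.4 and 94.1% with dCasRx, 96.0 to 97.6% with RBM25 and 97.4 to 98.0% with RBFOX1N. The SMG5 exon of 90 nt (chr1:156273361-156273450) was at 96.4 and 94.4% with dCasRx, 97.8 to 99.4% with RBM25 and 98.6 to 99.1% with RBFOX1N. The UPF1 exon of 85 nt, which carries the alternative end described above, and an SMG1 exon of 73 nt followed the same order of dCasRx under the rest. The differences in these 4 exons were 2.95, 3.22, 2.06 and 4.73 points with RBM25 and 4.002, 3.42, 2.31 and 4.82 points with RBFOX1N (quasi-binomial model, largest adjusted p = 0.0254).

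Other events with the largest differences at an unadjusted p under 0.05 were not called. The SMG1 exons of 470 nt and 156 nt differed between RBM25 and dCasRx by -8.99 points (quasi-binomial model, adjusted p = 0.0358) and -7.54 points (quasi-binomial model, adjusted p = 0.128), and the exon of 156 nt by -9.33 points between RBFOX1N and dCasRx (quasi-binomial model, adjusted p = 0.0733). For the exon of 156 nt the 2 dCasRx libraries differed from each other, at 49.4 and 61.6%, beside 44.7 to 51.9% with RBM25 and 44.0 to 51.5% with RBFOX1N. Without dCasRx_NT replicate 1 the 3 differences were -11.3, -13.6 and -15.4 points and were called, and without dCasRx_NT replicate 2 they were -6.63, -1.48 and -3.27 points (quasi-binomial model, adjusted p = 0.352, 0.941 and 0.76). An inner 5′ splice site of SMG1 differed by 8.14 points between RBFOX1N and dCasRx (quasi-binomial model, adjusted p = 0.076). A UPF3A exon of 265 nt (chr13:114284094-114284358), which matches no annotated exon, was at 7.70 to 18.3% with RBM25 and 5.56 to 11.0% with RBFOX1N, a difference of 6.31 points (SE 2.20; quasi-binomial model, adjusted p = 0.0606). UPF3A exon 4, whose skipping is a known choice of that gene, had too few reads to test.

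Guide by guide, no event in the decay factors was called within an effector (quasi-binomial model, 0 of 181 in each of 3 comparisons; limma on logit values also called 0). At an unadjusted p under 0.05 there were 6, 12 and 7 of 181 for the MAPT guide with RBM25, the CD46 guide with RBM25 and the MAPT guide with RBFOX1N. Over all events the share called was 0.000996%, 0% and 0%. The difference of the MAPT guide's effect between effectors passed for 0 of the 181 events (quasi-binomial model, smallest adjusted p = 0.779, 10 at an unadjusted p under 0.05; no other tool was run on it).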

How the data were processed

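The deposited gene table holds raw counts per Ensembl gene, whole numbers made by the authors; per the submitters' processing notes, the tools were STAR 2.7.10 and edgeR and the build was hg38. For annotation and strand the setting is not given in the sources used here. Deposited beside it by the authors, the splicing table, in the vast-tools layout, gives PSI in percent with inclusion and exclusion reads, per the file headers; in 100% of the tested values the deposited PSI lay within 0.05 points of those reads. The 9 factors and the partner, target and marker lists were chosen with earlier results of these data known; a gene of the partner list is not reported here.

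Gene counts went through the quasi-likelihood test of edgeR 4.0.16 (R 4.3.3; TMM, filterByExpr, glmQLFTest) over all 12 libraries as 6 group means, with Benjamini-Hochberg adjustment over all genes. All groups shared a single spread per gene, though replicates were not equally close in each group. The mean chi-square per gene between replicates was 6.5 in RBM25_CD46, 21.8 in dCasRx_NT and 36.3 in RBM25_MAPT. That measure also rises with read depth. Adjusted p-values of comparisons with dCasRx may therefore be too small. CPM use TMM-scaled library sizes. Splicing was tested on reads with a quasi-binomial logistic model, adjusted over 100386 events with at least 20 reads in each library and 24 of the minor form. Both were tested on simulated data. Named partners and targets are up to 3 called genes a direction with the largest change; named events are all called, known isoform choices and the 5 largest per comparison at p under 0.05; other events at adjusted p under 0.05 were added after their values were seen. Alternatives used RLE scaling, DESeq2 1.42.0, limma 3.58.1, other filters, single guides, a replicate block and each library left out. Wilson intervals cover counting error only.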

Additional observations from a re-analysis of the deposited data

How the results depend on the processing

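Each decay factor, and most named events in the 3 effector comparisons, were compared under each alternative, 1764 values in all. Left out of these values were the SMG9 exon of 58 nt, the 4 exons nearly always included and the UPF1 exons of 177, 214 and 157 nt. Of the 1764 values, 1724 stayed called or stayed not called, 29 lost a call, 11 gained one and 0 called values reversed. Most of the 1724 were never called, so their number does not measure how well the calls held. Among the gene values that were not called, 52 changed sign. With RBM25 against dCasRx, 0 of 9 genes and 0 events were called with the nontargeting guide only, and 0 genes in a fit of the compared groups only. Without the 10-point minimum, 9, 7 and 19 events passed in the 3 effector comparisons. When any 1 library was left out, the genes called ranged from 0 to 2, from 1 to 4 and stayed at 3, the events from 0 to 2, from 0 to 3 and from 0 to 1, and the MAPT guide with RBM25 called 0 to 2 genes (SMG1 and UPF3B without RBM25_MAPT replicate 1). UPF1 lost its call under 8 of 20 alternatives with RBM25 and under 12 of 20 with RBFOX1N, RLE scaling among the latter. The calls of SMG9 with RBFOX1N and between effectors held under all 20.

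Replicate numbers paired the samples weakly if at all. The correlations of same-numbered deviations ran from -0.098 to 0.166 over 15 pairs of groups, 2 of them over 0.1. The highest values, 0.166, 0.105 and 0.1, were those between the RBM25 groups. With the replicate block, 1, 3 and 3 genes and 1, 1 and 1 events were called in the 3 effector comparisons, and 0 in each guide comparison. Comparisons with dCasRx rest on its 2 libraries, and the SMG1 exon of 159 nt on 34 to 85 reads a library.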
